A study of Homo sapiens with 6 samples.

Results

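Small nucleolar RNAs (snoRNAs) and small Cajal body RNAs (scaRNAs) were examined in U-2 OS cells depleted of SFPQ. The genes were chosen by annotation class: every identifier of the count table that GENCODE release 44 classes as snoRNA or scaRNA was taken, which gave 991 of 60664 genes. Names placed 386 of them in the box C/D class, 214 in the box H/ACA class and 53 among the scaRNAs, and 338 carry a name from which no class can be read. Only 104 of the 991 had at least 10 counts in total and were tested. The word intronic describes part of the set: 378 genes lie in an intron of a longer gene on the same strand, here called the host gene, and 76 of the 104 tested genes are of that kind.

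U-2 OS is a human osteosarcoma cell line. Cells of both groups were transfected by lipofection (RNAi-MAX), with a control siRNA (siCTRL) or with an siRNA against SFPQ (siSFPQ) at 30 nM, and each group has 3 libraries that the study's methods call biological replicates. SFPQ is a nuclear RNA- and DNA-binding protein of paraspeckles. Polyadenylated RNA was made into Illumina TruSeq libraries, named as stranded mRNA libraries in the study's methods, and sequenced as 150-base read pairs. The libraries hold between 43469321 and 47119203 counts, at which 3 counts, used below as the floor for a gene at 0, correspond to 0.0637 to 0.069 CPM, the scale of counts relative to the library total. The targeted gene SFPQ fell from 22444 ± 666 to 3376 ± 356 normalized counts (SD, n = 3), a log2 fold change of -2.73. Of 5 osteoblast genes taken as markers of the labelled line, RUNX2, COL1A1 and ALPL had counts in every library, whereas SP7 and BGLAP had at most 5 and 6 counts and were at 0 in 2 libraries each.

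Most human snoRNAs are not transcribed on their own. They are cut out of an intron after the host transcript has been spliced and the intron lariat has been opened, and exonucleases then trim the ends up to the bound proteins. Box C/D RNAs carry the proteins fibrillarin, NOP56, NOP58 and SNU13 and guide 2′-O-methylation, box H/ACA RNAs carry dyskerin, GAR1, NHP2 and NOP10 and guide pseudouridylation, and scaRNAs do the same work on spliceosomal RNAs in Cajal bodies. Ribosomal protein genes and the small nucleolar host genes (SNHG) are classic hosts. Mature snoRNAs end without a poly(A) tail, so a library of polyadenylated RNA holds few of them, and at such a gene a read pair from the mature RNA and one from unspliced or retained intron cannot be told apart in these counts. In bulk RNA, more RNA in each cell and more cells that hold it cannot be told apart either.

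The sequences of the genes on which the comparison turns are printed 5′ to 3′ in the sense of the RNA, as DNA letters, from the GENCODE 44 transcripts on GRCh38. SNORD17, the most abundant gene of the set, lies at chr20:17962710-17962946 on the minus strand. SNORD94, at chr2:86135870-86136006 on the plus strand, is one of the genes called lower. In both, capitals mark the letters TGATGA within the first 25 bases and CTGA within the last 25 bases, which are the core of boxes C and D.
SNORD17: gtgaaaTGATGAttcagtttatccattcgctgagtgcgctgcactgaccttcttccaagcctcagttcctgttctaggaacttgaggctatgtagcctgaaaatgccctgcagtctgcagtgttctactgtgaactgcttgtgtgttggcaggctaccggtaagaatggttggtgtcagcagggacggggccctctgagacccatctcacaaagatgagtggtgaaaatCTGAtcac
SNORD94: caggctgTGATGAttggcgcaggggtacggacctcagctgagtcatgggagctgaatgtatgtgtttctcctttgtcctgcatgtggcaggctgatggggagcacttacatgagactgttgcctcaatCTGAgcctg
The next group holds the H/ACA genes that were called higher against their host, with the letters ACA that end 3 bases before the 3′ end in capitals. SNORA12 lies at chr10:100237156-100237302 (minus strand), SNORA14A at chr7:75943782-75943916 (plus strand), SNORA14B at chr1:235127803-235127937 (minus strand) and SNORA65 at chr9:127448501-127448630 (minus strand). ENSG00000206647, at chr2:10155072-10155206 (minus strand), has no class in its name and ends with the same letters.
SNORA12: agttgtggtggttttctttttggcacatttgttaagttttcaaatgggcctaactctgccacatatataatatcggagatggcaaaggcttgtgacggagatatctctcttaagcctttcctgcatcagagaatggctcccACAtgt
SNORA14A: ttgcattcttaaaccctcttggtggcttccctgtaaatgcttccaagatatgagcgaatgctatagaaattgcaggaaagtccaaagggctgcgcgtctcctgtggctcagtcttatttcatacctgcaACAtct
SNORA14B: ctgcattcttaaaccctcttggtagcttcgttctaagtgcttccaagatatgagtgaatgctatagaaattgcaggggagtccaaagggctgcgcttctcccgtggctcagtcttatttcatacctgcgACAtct
SNORA65: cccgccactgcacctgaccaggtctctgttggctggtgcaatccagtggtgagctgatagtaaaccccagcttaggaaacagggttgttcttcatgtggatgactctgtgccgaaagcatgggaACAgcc
ENSG00000206647: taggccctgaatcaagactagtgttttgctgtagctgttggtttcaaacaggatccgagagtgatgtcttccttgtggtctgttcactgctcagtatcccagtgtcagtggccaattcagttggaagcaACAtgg
A pair of dispersed copies of C/D families is shown because both rose from at most 1 count per library. A copy annotated as U8, ENSG00000200026, lies at chr9:38147428-38147561 on the plus strand, and a copy annotated as SNORD116, ENSG00000252985, at chr9:126426893-126426970 on the plus strand. Capitals again mark TGATGA in the first 25 bases and CTGA in the last 25 bases, where they were found there.
ENSG00000200026: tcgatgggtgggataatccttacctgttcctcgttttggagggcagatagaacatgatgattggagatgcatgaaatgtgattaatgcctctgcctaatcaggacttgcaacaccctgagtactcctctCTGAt
ENSG00000252985: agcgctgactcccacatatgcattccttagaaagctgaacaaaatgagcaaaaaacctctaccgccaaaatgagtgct
Over all members, TGATGA in the first 25 bases was present in 53.9% of C/D genes and in 0.467% of H/ACA genes, against 25.1% of the 991. CTGA in the last 25 bases was present in 86% of C/D genes and in 10.7% of H/ACA genes, against 49% of all. The terminal ACA was present in 66.4% of H/ACA genes, in 1.3% of C/D genes and in 38.5% of the genes with no class in the name, against 30.8% of all. The search was made on the RNA strand with exact letters. Both TGATGA and CTGA were present in their windows in 51.3% of C/D genes. Each motif was thus more frequent in the class that its name goes with, and part of each class lacked it. SNORD17 and SNORD94 held both C/D motifs. In these windows of 25 bases the U8 copy held CTGA without TGATGA, and the SNORD116 copy held neither. Outside the windows searched for each motif, the U8 copy held TGATGA and the SNORD116 copy held CTGA. SNORA14A and SNORA14B were identical at 123 of 135 aligned positions (91.1%). The U8 copy was 88.9% identical to SNORD118, the functional U8 gene, and the SNORD116 copy was 60.8% identical to SNORD116-1.

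Few of these genes gave counts. All 6 libraries were at 0 for 721 of the 991 genes (72.8%), and 10.5% of the set had enough counts to be tested, against 47.8% of the whole table. The 991 genes together held 7497 counts, of which SNORD17 held 1793 (23.9%). The median tested gene had a mean of 4.18 normalized counts, and 12 had a mean of at least 20. Counts this low bring a wide counting error on their own.

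The position in the host went with whether a gene could be read. Of the 378 genes in a host intron, 76 (20.1%) were tested. Of 172 genes inside a gene on the opposite strand, 16 (9.3%) were tested, and of 210 genes outside any other gene 10 (4.76%) were. Among the 231 genes that overlap an annotated exon of a host, 2 (0.866%) were tested and 95.7% were at 0 in every library. How the counting treated reads that overlap the exons of 2 genes is not given in the sources used here. By class, 40 of 214 H/ACA genes (18.7%), 8 of 53 scaRNAs (15.1%), 34 of 386 C/D genes (8.81%) and 22 of 338 genes with no class (6.51%) were tested. H/ACA genes are longer than C/D genes, with median lengths of 133 and 82 bases. Tested intronic genes lay in shorter and more abundant hosts than intronic genes that could not be tested. Their median host span was 21396 against 129436 bases, and their median host level was 919 against 37.1 normalized counts per kilobase. These medians are over genes, so a host counts once for each of its intronic members. SNHG14 alone has 45 of them, and 0 were tested.

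**Figure D1:**
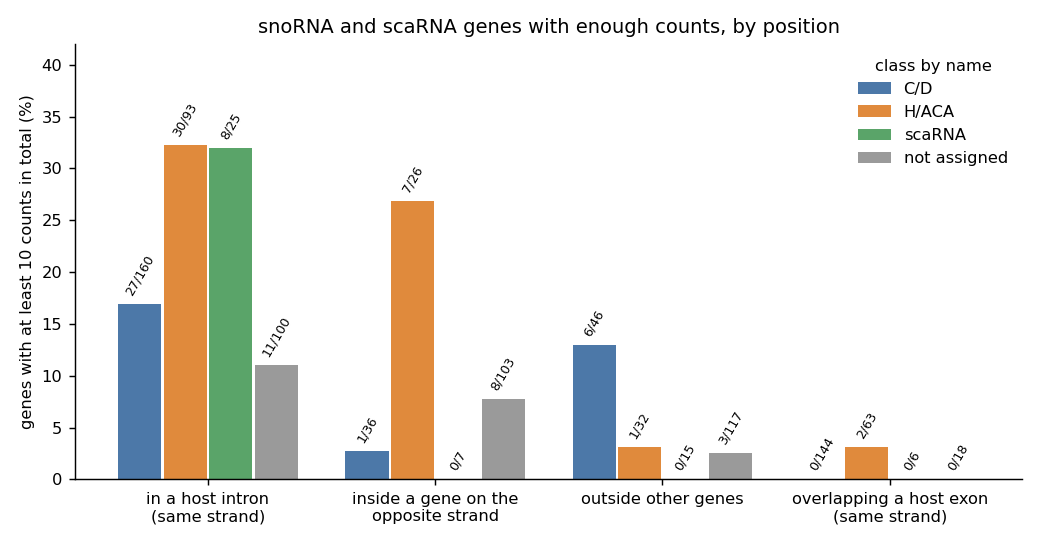
The bars show the percentage of snoRNA and scaRNA genes with at least 10 counts in total, for 4 positions relative to other genes and for each class by name, with the number of such genes over the number of genes in the class above each bar. Intronic H/ACA genes and scaRNAs stood highest, at 32.3% and 32%, and none of the 144 C/D genes that overlap a host exon reached 10 counts.

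The members of long clusters and of several well-known hosts held almost no counts. SNHG14, the host of the imprinted SNORD115 and SNORD116 clusters, was read at 4233 ± 137 and 4874 ± 161 normalized counts in siCTRL and siSFPQ (SD, n = 3), but 82 of its 84 members were at 0, 39 of them overlapping an exon of the host and 43 lying in its introns. Of the 39 SNORD113 and SNORD114 genes of chromosome 14, 38 were at 0. MEG8, a host gene on this chromosome, was itself at 0 in siCTRL and at 0.673 ± 0.583 normalized counts in siSFPQ (SD, n = 3). Of its 46 members, 45 were at 0. The members of SNHG1 (7 of 7), EIF4A2, NOP56 and RPL4 (5 of 5 each) and RPL13A and RPL7A (4 of 4 each) were all at 0, and all of these overlap a host exon. Several RNAs with known functions were also at 0 throughout: SNORD118 (U8, needed for maturation of 5.8S and 28S rRNA), SNORA73A, and the scaRNAs SCARNA2, SCARNA10 and SCARNA13. A count of 0 allows up to 3 counts per library, and whether these zeros reflect the level of the RNA or the way reads were assigned cannot be told apart in the counts. SNORD13 (U13), read at 3, 0 and 0 counts in siCTRL and 0, 0 and 1 in siSFPQ, and SCARNA7, read at 0, 3 and 1 against 3, 0 and 0, were not tested.

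Among the 104 tested genes, 16 were higher and 2 were lower in siSFPQ than in siCTRL by edgeR's quasi-likelihood test at a Benjamini-Hochberg adjusted p under 0.05. Over all 29022 genes tested, 22.4% were called higher and 22.1% lower, so that 44.6% of the table but 17.3% of the snoRNA and scaRNA genes were called. With the study's added limit of a log2 fold change of 1.5, 13 members were higher and 1 was lower, beside 5.54% and 4.77% of all genes. The normalized counts of the conditions did not overlap for 19 members that were higher and 1 that was lower, beside 26.9% and 25.4% of all genes. The median log2 fold change of the 104 was 0.17, or 0.13 with genes at the floor set to their bound, against 0.02 or 0.00 over all genes. A positive log2 fold change was found for 63 of the 104 and a negative one for 41. Of the 16 genes called higher, 7 had at most 3 counts in every siCTRL library and passed the count limit through the siSFPQ libraries. DESeq2 called 11 members higher and 0 lower, all 11 of them among the 18. Without siSFPQ replicate 1 the counts were 10 higher and 1 lower, and without siCTRL replicate 1, siSFPQ replicate 2 or siSFPQ replicate 3 none was lower by edgeR.

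**Figure D2:**
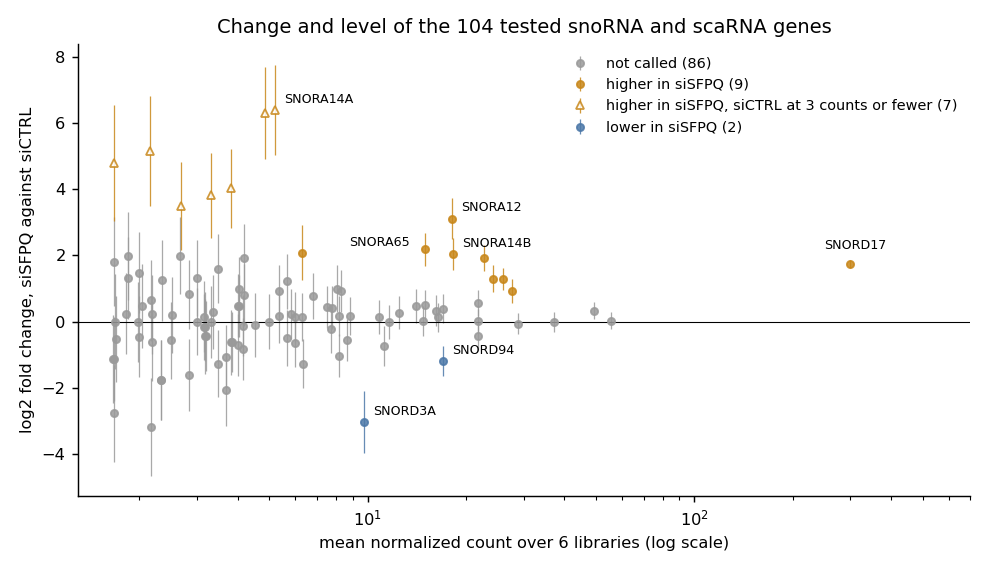
Each point is one of the 104 tested genes, with its mean normalized count over the 6 libraries on a log x axis and its log2 fold change (siSFPQ against siCTRL) on the y axis, and bars are the standard error of the fit. Open triangles are the 7 called genes with at most 3 counts in every siCTRL library, whose fitted values depend on the prior count. SNORD17 stands alone at the right, and the 2 genes called lower lie below 20 normalized counts.

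Summed counts told how much of this rested on SNORD17. The 991 genes took 21, 19.7 and 20.7 CPM in the siCTRL libraries and 36.9, 34.9 and 31.6 in the siSFPQ libraries, a mean of 20.5 ± 0.681 against 34.5 ± 2.68 (SD, n = 3), or 1.68-fold. Without SNORD17 the sums were 17.6 ± 1.06 and 24.2 ± 1.86, or 1.38-fold. The siSFPQ libraries also held more members with a count, 160 to 169 against 110 to 134. Such numbers are not given for other genes of low count, so these sums do not show a change particular to the set. The sums were 1.79-fold higher for C/D genes, 1.52-fold for H/ACA genes, 1.85-fold for genes with no class and 1.19-fold for scaRNAs. The scaRNA sums overlapped between the conditions, at 0.637 to 1.11 CPM in siCTRL and 0.857 to 1.14 in siSFPQ, and those of the other classes did not. The C/D difference rested on SNORD17: without it the C/D sums were 8.47, 6.6 and 7 CPM in siCTRL and 8.24, 8.7 and 7.36 in siSFPQ, 1.1-fold and overlapping.

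The classes held calls as follows. Of 34 tested C/D genes, 4 were higher and 2 lower. Of 40 tested H/ACA genes, 7 were higher and 0 lower by edgeR, and 0 were lower at an unadjusted p under 0.05 or by DESeq2. Of the 22 genes with no class in the name, 5 were higher and 0 lower, again with 0 lower at an unadjusted p under 0.05 and by DESeq2. Of the 8 scaRNAs, 0 were called in either direction by edgeR or DESeq2, with 0 higher and 1 lower at an unadjusted p under 0.05. The shares called by edgeR were 17.6% for C/D, 17.5% for H/ACA, 22.7% for genes with no class and 0% for scaRNAs. They are to be read beside the 22.4% and 22.1% of all genes called higher and lower. The median log2 fold change was 0.14 for C/D, 0.26 for H/ACA, 0.46 for genes with no class and 0.07 for scaRNAs, or 0.13, 0.02, 0.21 and 0.07 with genes at the floor set to their bound. No difference between the 4 classes was tested. All 7 called H/ACA genes held the terminal ACA, beside 77.5% of the tested H/ACA genes, and 3 of the 5 called genes with no class did, beside 54.5%. Of the 4 C/D genes called higher, 1 held TGATGA in the first 25 bases and 2 held CTGA in the last 25 bases. Among the tested C/D genes, 52.9% and 85.3% did.

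SNORD17 is a long C/D RNA that guides methylation of 28S rRNA. It was read at 108, 144 and 157 counts in siCTRL and at 481, 476 and 427 counts in siSFPQ. Every siSFPQ library was above every siCTRL library by a wide margin. The mean rose from 137 ± 25.4 to 461 ± 37.7 normalized counts (SD, n = 3), a log2 fold change of 1.75 ± 0.12 (standard error) (edgeR adjusted p = 2.58e-14). Leaving out any library kept the log2 fold change between 1.61 and 1.87. SNORD17 lies in an intron of 5495 bases of SNX5, a sorting nexin of endosomes, 517 bases before the next exon. SNX5 itself rose from 5535 ± 45.2 to 7279 ± 348 normalized counts, a log2 fold change of 0.40. The rise of SNORD17 exceeded that of its host by 1.36 on the log2 scale (standard error 0.19), in a test that takes the host count of each library as an offset (edgeR adjusted p over 1735 nested genes = 2.48e-06).

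SNORA12 was read at 0, 11 and 0 counts in siCTRL and at 31, 26 and 41 in siSFPQ. The siCTRL libraries were uneven, since all 11 reads came from replicate 2, but each siSFPQ library was higher than any of them. The log2 fold change was 3.11 ± 0.615 (standard error) (edgeR adjusted p = 7.82e-05), and the call did not hold in DESeq2 (adjusted p = 0.156). With 1 library left out, the value ranged from 2.54 to 8.03, the latter without siCTRL replicate 2, a fitted value against libraries at 0. The host, CWF19L1, fell by 0.46 on the log2 scale, from 1536 ± 104 to 1115 ± 18 normalized counts. Against the host, SNORA12 was higher by 3.55 (edgeR adjusted p = 0.000204).

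SNORA14A and SNORA14B are near-identical H/ACA genes in different hosts, so that some of their reads may be assigned to either. SNORA14A was at 0 in all siCTRL libraries and at 14, 8 and 9 counts in siSFPQ, at least 3.46-fold higher against 3 counts per library (edgeR adjusted p = 0.000245). SNORA14B was read at 2, 6 and 13 counts in siCTRL and at 31, 30 and 27 in siSFPQ, a log2 fold change of 2.04 ± 0.47 (standard error) (edgeR adjusted p = 0.00051), or 2.83 without siCTRL replicate 3 and 1.61 without siCTRL replicate 1. Neither gene overlapped between the conditions. The hosts moved apart. POR, the electron donor of cytochrome P450 enzymes and host of SNORA14A, fell by 0.81 on the log2 scale, and TOMM20, a mitochondrial import receptor and host of SNORA14B, had a log2 fold change of 0.12. Both snoRNA genes were called higher against their hosts, with edgeR adjusted p = 0.000115 for SNORA14A and 0.00398 for SNORA14B.

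SNORA65 (U65), a guide for 28S rRNA, lies 77 bases before the next exon of RPL12, a ribosomal protein gene. It was read at 6, 7 and 3 counts in siCTRL and at 22, 32 and 20 in siSFPQ, with no overlap. The log2 fold change was 2.18 ± 0.494 (standard error) (edgeR adjusted p = 0.000436), and RPL12 was not called, at 0.07. Against the host, SNORA65 was higher by 2.11 (edgeR adjusted p = 0.00258).

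SNORA79B and SNORA73B rose less, and both lie in hosts that rose. SNORA79B was read at 4, 18 and 20 counts in siCTRL and at 42, 35 and 26 in siSFPQ, a log2 fold change of 1.29 (edgeR adjusted p = 0.00958). Its call was lost without siSFPQ replicate 1 (log2 fold change 1.11). The host, CCNB1IP1, had a log2 fold change of 0.18, and SNORA79B was not called against it (edgeR adjusted p of the comparison with the host = 0.068). SNORA73B (U17), which is needed for early cleavages of the 18S rRNA precursor, was read at 10, 24 and 23 counts in siCTRL and at 50, 28 and 30 in siSFPQ. The groups did not overlap, but the lowest siSFPQ library was close to the highest siCTRL library. Its log2 fold change was 0.92 ± 0.36 (standard error) (edgeR adjusted p = 0.0368), and the call was lost without siCTRL replicate 1 (0.61), without siSFPQ replicate 1 (0.60) and in DESeq2 (adjusted p = 0.0844). RCC1, the exchange factor of Ran that shares this locus with SNHG3, rose by 0.67 on the log2 scale, and SNORA73B differed from it by 0.26 (edgeR adjusted p = 0.711). Its neighbour SNORA73A, 93.2% identical, was at 0 in every library.

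SNORA9B, in an intron of the RNA helicase gene DDX55, was read at 0, 4 and 3 counts in siCTRL and at 8, 17 and 6 in siSFPQ. Its log2 fold change was 2.08 (edgeR adjusted p = 0.0396), and the call was lost under 6 alternatives, among them without siCTRL replicate 1 (1.52) or 3 (2.29), without siSFPQ replicate 1 (2.23) or 2 (1.54) and in DESeq2 (adjusted p = 0.0638), while it was 2.68 without siCTRL replicate 2. DDX55 had a log2 fold change of -0.01. The genes SNORA12, SNORA14A, SNORA14B, SNORA65 and SNORA9B had means under 20 normalized counts and were chosen for description after their values were seen, as were SNORD94, the U8 and SNORD116 copies and ENSG00000239197, ENSG00000252408, ENSG00000252904 and ENSG00000252274.

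**Figure D3:**
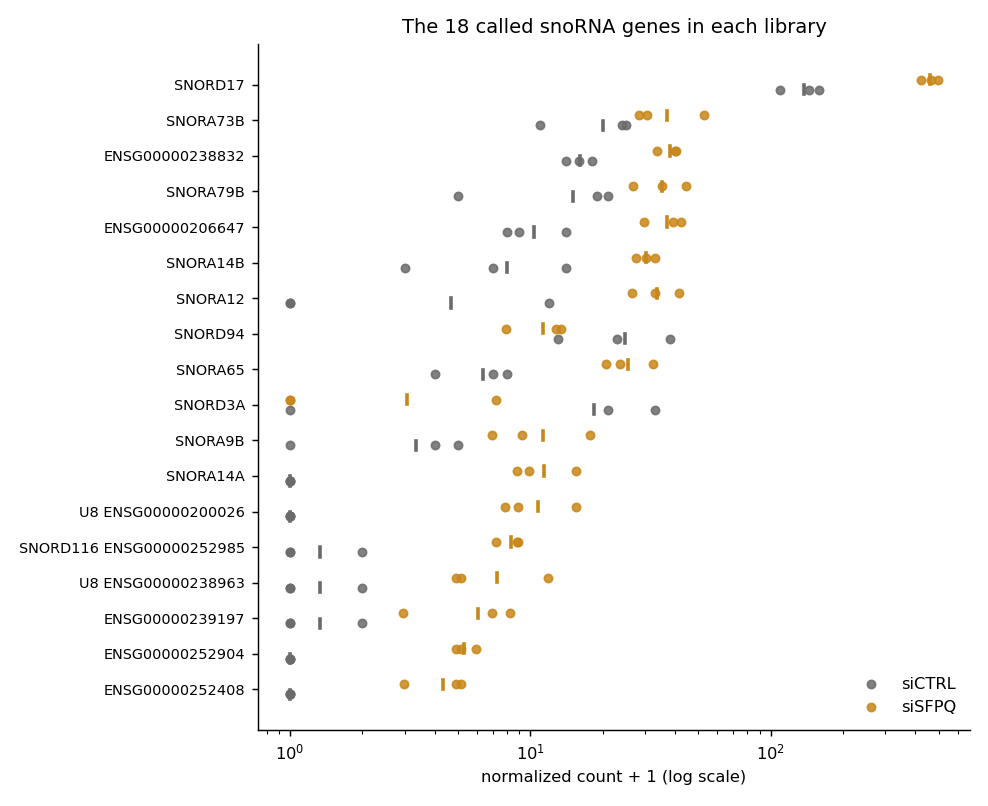
Each row is one of the 18 called genes, and points are the normalized count plus 1 in each library on a log axis, grey for siCTRL and orange for siSFPQ, with the mean of each condition as a vertical bar. The conditions were separate for all 16 genes called higher and overlapped for both genes called lower, SNORD3A and SNORD94.

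Of the genes called higher, 5 have no class in the name. ENSG00000206647 was read at 8, 7 and 13 counts in siCTRL and at 40, 39 and 29 in siSFPQ, a log2 fold change of 1.93 ± 0.39 (standard error) (edgeR adjusted p = 0.000103). It lies inside RRM2, a subunit gene of ribonucleotide reductase, on the opposite strand, and RRM2 fell by 1.09 on the log2 scale. ENSG00000238832, in an intron of 12826 bases of the DUS4L-BCAP29 readthrough gene at chr7:107603363-107603507, was read at 13, 15 and 17 against 38, 40 and 33 counts. Neither gene overlapped between the conditions. The latter rose by 1.29 on the log2 scale (standard error 0.338, edgeR adjusted p = 0.00198) while its host fell by 0.86, and it was higher than the host by 2.18 (edgeR adjusted p = 9.15e-05).

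The other 3 had at most 1 count per siCTRL library. ENSG00000239197, in an intron of the polysialyltransferase gene ST8SIA2 (host log2 fold change -2.14), was read at 0, 0 and 1 against 7, 2 and 6 counts, at least 1.68-fold higher. ENSG00000252408, opposite FZR1, was at 0 in siCTRL and at 4, 4 and 2 in siSFPQ, at least 1.11-fold higher. ENSG00000252904, opposite ERBIN, was at 0 in siCTRL and at 4, 4 and 5 in siSFPQ, at least 1.44-fold higher. These are differences of a few reads. The calls of ENSG00000239197 and ENSG00000252408 were lost in DESeq2 (adjusted p = 0.0527 and 0.064), the former also without siCTRL replicate 1 or 2 or siSFPQ replicate 3, and the latter without siCTRL replicate 3. That of ENSG00000252904 was kept wherever it was tested, which did not include the fits without a siSFPQ library.

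The dispersed copies of U8 and SNORD116 were near 0 in siCTRL as well. The U8 copy ENSG00000200026, outside any other gene, was at 0 in all siCTRL libraries and at 14, 7 and 8 counts in siSFPQ, at least 3.24-fold higher (edgeR adjusted p = 0.000388). The U8 copy ENSG00000238963, at chr6:154905076-154905206 opposite TIAM2 and 62.3% identical to SNORD118, was read at 0, 0 and 1 against 4, 4 and 11 counts, at least 2.1-fold higher (edgeR adjusted p = 0.0153). The SNORD116 copy, in an intron of 26077 bases of MVB12B, a subunit gene of the ESCRT-I complex, was read at 1, 0 and 0 against 6, 8 and 8 counts, at least 2.43-fold higher (edgeR adjusted p = 0.0065). All of these copies rose while SNORD118 and 77 of the 79 SNORD115 and SNORD116 genes of chromosome 15 were at 0. MVB12B fell from 970 ± 19.9 to 258 ± 21 normalized counts, a log2 fold change of -1.91. Of the 4 genes called higher inside a gene on the opposite strand, 3 lay in a gene called lower (RRM2, ERBIN and TIAM2, with log2 fold changes of -1.09, -0.63 and -0.56). Over all genes tested, 22.1% were called lower. Among the 4, ENSG00000238963, ENSG00000252408 and ENSG00000252904 had at most 1 count per siCTRL library and reached 10 counts only through the siSFPQ libraries. A relation to the opposite gene was not tested.

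The 2 genes called lower did not separate the conditions. SNORD3A encodes U3, which is needed for the first cleavages of the ribosomal RNA precursor and is transcribed from its own promoter. It was read at 32, 20 and 0 counts in siCTRL and at 6, 0 and 0 in siSFPQ, a log2 fold change of -3.03 (edgeR adjusted p = 0.00794). The third siCTRL library was at 0, as were 2 siSFPQ libraries. The call was lost without siCTRL replicate 1 (-2.25), without siSFPQ replicate 2 (-2.48) or 3 (-2.46) and in DESeq2 (adjusted p = 0.463). Without siSFPQ replicate 1, which held all 6 siSFPQ reads, the fitted value was -7.13 against libraries at 0. U3 has near-identical copies, among which reads can be split: SNORD3B-1 was read at 0, 2 and 7 against 1, 4 and 1 counts and SNORD3B-2 at 4, 2 and 5 against 6, 2 and 0, and neither was called. SNORD94 (U94), a guide for U6 snRNA in an intron of the mitochondrial ribosome gene PTCD3, was read at 37, 22 and 12 counts in siCTRL and at 12, 12 and 7 in siSFPQ. Its log2 fold change was -1.19 ± 0.459 (standard error) (edgeR adjusted p = 0.0341), while PTCD3 was at 0.09. The call was lost without siCTRL replicate 1 (-0.71), without siSFPQ replicate 1 (-1.32), 2 (-1.31) or 3 (-0.96) and in DESeq2 (adjusted p = 0.0764).

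SNORD17 was also the highest of the set per length, at 1261 normalized counts per kilobase, and the next 7 genes were not called. SNORD104, a guide for 28S rRNA in the host SNHG25, stood at 701 normalized counts per kilobase. It was read at 51, 26 and 53 counts in siCTRL and at 62, 43 and 59 in siSFPQ, a log2 fold change of 0.33 ± 0.263 (standard error) (edgeR adjusted p = 0.332). SNORA11F, opposite NUDT13, stood at 433 and was read at 33, 51 and 80 against 69, 46 and 53 counts (log2 fold change 0.03, standard error 0.261). SNORD14A (U14), in the ribosomal protein gene RPS13, stood at 316 and was read at 35, 25 and 28 against 20, 37 and 28 counts (-0.06, standard error 0.321). These genes overlapped between the conditions.

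RPS12, another ribosomal protein gene, was a host with more than 1 member that could be read. SNORD101, at 299 normalized counts per kilobase, had 15, 25 and 25 counts in siCTRL and 21, 24 and 21 in siSFPQ. SNORA33, at 286, had 52, 21 and 39 against 34, 49 and 28. SNORD100 had 12, 13 and 19 against 11, 20 and 14. Their log2 fold changes were 0.02, -0.02 and 0.02, with standard errors of 0.365, 0.308 and 0.45, and that of RPS12 was 0.01. The sign of SNORA33 turned to 0.04 with library size alone. SNORD62B, in PRRC2B, was at 252 normalized counts per kilobase, with -0.45 ± 0.404 on the log2 scale (standard error), and SNORD99, in SNHG12, at 229 with 0.39 (standard error 0.435). SNORD17 thus stood apart from the genes nearest to it in counts per kilobase, whose log2 fold changes were between -0.45 and 0.39. By counts alone it was not the only riser. Of the 12 members with a mean of at least 20 normalized counts, 5 were called higher, SNORD17 among them, and 0 lower.

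The scaRNAs were read at low counts. SCARNA5, in the autophagy gene ATG16L1, had 4, 2 and 0 counts in siCTRL and 5, 1 and 1 in siSFPQ (log2 fold change 0.22, standard error 1.19). SCARNA6, in the same host, had 5, 3 and 2 against 4, 0 and 5. SCARNA18, in TMEM167A, had 9, 0 and 3 against 0, 1 and 0, the lowest fitted value of the set at -3.18 (edgeR adjusted p = 0.0795), and its siSFPQ libraries were all under the floor. The scaRNA with the most counts was ENSG00000252274, with 13, 9 and 13 against 7, 13 and 15 counts and a log2 fold change of -0.01. Standard errors of this size leave changes of several fold in either direction undetected.

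The comparison with the hosts covered 76 tested intronic genes. The hosts themselves were called often: of 236 tested hosts of intronic members, 59 were higher, 79 lower and 98 not called (58.5% called, against 44.6% of all genes). Of 29 tested members whose host was called higher, 4 were higher and 0 lower by edgeR, with 1 lower at an unadjusted p under 0.05 and 0 by DESeq2. Their median log2 fold change was 0.22, beside a median of 0.35 in their hosts. Of 17 members whose host was called lower, 5 were higher and 0 lower, with 0 lower at an unadjusted p under 0.05 and by DESeq2. Here 12 of 17 had a positive log2 fold change, and the median was 0.47, or 0.44 with genes at the floor set to their bound, beside -0.61 in the hosts. Of these 17, 5 had at most 3 counts in every siCTRL library and 2 in every siSFPQ library, and 3 of the 5 called higher (SNORA14A, the SNORD116 copy and ENSG00000239197) reached 10 counts only through the siSFPQ libraries, so their direction was set in part by the count limit. Of the 10 members over the floor in both conditions, 7 had a positive log2 fold change and 2 were called higher. Of 30 members with a host that was not called, 2 were higher and 1 lower, with a median of 0.02. These counts are to be read beside the 22.4% and 22.1% of all genes called higher and lower. No tested member was called lower together with its host, but only 1 tested intronic member was called lower at all.

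A fit over all 1735 intron-nested genes of any class, with the host's counts as offset, tested each member against its host. Of 75 members in this fit, 9 were higher than the host's change and 0 lower, beside 21.7% and 5.36% of all nested genes. At an unadjusted p under 0.05 there were 12 higher and 4 lower. DESeq2 was not run on this comparison. The median difference from the host was 0.06 on the log2 scale, with or without genes at the floor set to their bound, against 0.40 over all nested genes. Other nested classes had medians of 0.36 (104 miRNA genes, 16 higher and 2 lower), -0.07 (51 snRNA genes, 4 and 0) and 0.67 (85 genes of the misc_RNA class, 16 and 0). These are counts and medians beside each other, and differences between the classes were not tested.

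The 9 genes were SNORD17, SNORA12, SNORA14A, SNORA14B, SNORA65, the SNORD116 copy, ENSG00000238832, ENSG00000239197 and the scaRNA ENSG00000252274. Of these, 6 had a host called lower, 2 a host called higher (SNX5 and TOMM20) and 1 a host that was not called (RPL12). Among all 75 members in the fit, 17 had a host called lower, 29 a host called higher and 29 a host not called. With the host's count as offset, a fall of the host by itself raises the difference. Among the 6, SNORA14A, the SNORD116 copy and ENSG00000239197 had at most 1 count per siCTRL library. They reached 10 counts only through the siSFPQ libraries, so their direction was set in part by the count limit. ENSG00000252274 differed from the others in that its own log2 fold change was -0.01 while its host, the zinc transporter gene SLC39A11, fell by 1.82 on the log2 scale (difference 1.81, edgeR adjusted p = 0.012). Across the 75 pairs, the log2 fold changes of member and host had a Pearson r of -0.376 and a Spearman rho of -0.107. The pairs share the 6 libraries, some share a host, and most members have few counts, so these values describe the set and no more. For the 9 members with a mean of at least 20 normalized counts, r was 0.0824 and rho 0.36.

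**Figure D4:**
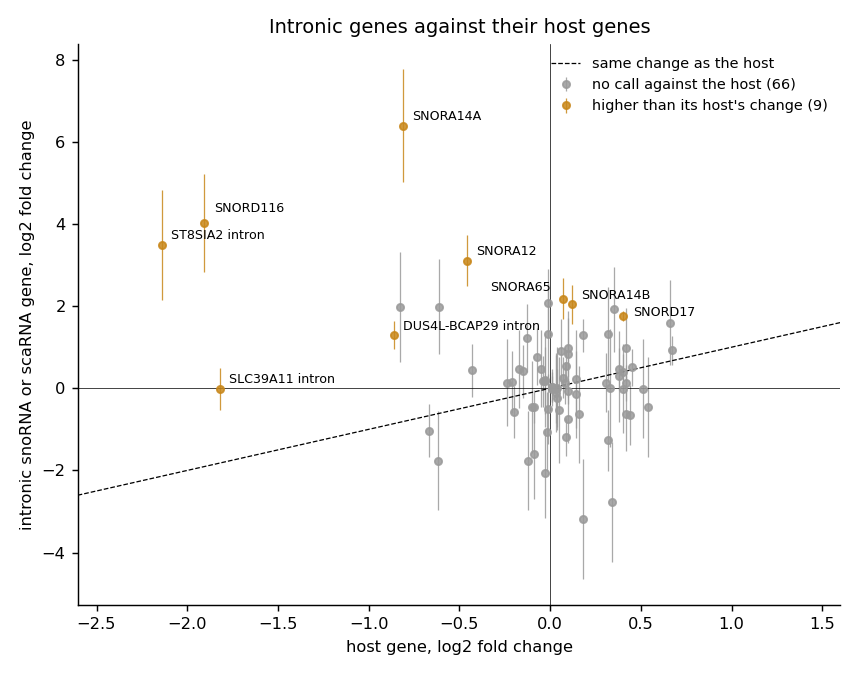
Each point is one of the 75 intronic genes tested against its host, with the host's log2 fold change on the x axis and the gene's own on the y axis, and bars are the standard error of the latter. The dashed line marks the same change as the host. The 9 labelled genes were called higher than their host's change, and the 6 of them at the left have hosts that fell.

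The genes that make and mature these RNAs changed by small amounts. Of 35 such genes in 6 groups, all tested, 16 were higher and 6 lower, 0 passed a log2 fold change of 1.5 in edgeR's test, and the median was 0.12. With no size limit that share is to be read beside the 22.4% and 22.1% of all genes. All 4 core proteins of C/D particles were higher: FBL (fibrillarin, the methyltransferase) by 0.17, NOP56 by 0.34, NOP58 by 0.44 and SNU13 by 0.22 on the log2 scale. Of the 4 H/ACA core proteins, DKC1 (dyskerin, the pseudouridine synthase, 0.13) and GAR1 (0.25) were higher, and NHP2 (-0.11) and NOP10 (0.12) were not called. Of 10 assembly factors, 4 were higher and 2 lower, with RUVBL1 at 0.47 and NOPCHAP1 at 0.49, and with SHQ1, the chaperone of dyskerin, at -0.67 (1451 ± 72.7 to 911 ± 45.2 normalized counts).

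Of 10 genes of intron release and end trimming, 4 were higher and 3 lower. The exonucleases XRN2 (0.23), EXOSC10 (0.26) and DIS3 (0.21) were higher, as was the poly(A) polymerase gene TENT4B (0.26). PARN, the deadenylase that trims H/ACA RNAs, was lower at -0.44, as were AQR (-0.18) and EXOSC3 (-0.20). DBR1, which opens the lariat, was not called, at -0.14. Of 4 genes of cap formation and transport, NOLC1 was higher (0.38) and PHAX lower (-0.12). Of 3 Cajal body genes, COIL was higher (0.17) and WRAP53 (-0.14) and TOE1 (0.01) were not called. The part of these changes in the snoRNA counts was not tested.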

How the data were processed

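Polyadenylated RNA of U-2 OS cells transfected with a control siRNA or an SFPQ siRNA was compared, with 3 libraries per condition grouped by their labels. The authors checked reads with FastQC, aligned them with STAR 2.7.9a against Ensembl GRCh38, and the deposited values are raw counts per gene, without normalization. The strand setting of the counting is not given in the sources used here. All 6 columns were used, and the number of unused columns was 0. Classes, positions, exons and transcript sequences came from GENCODE release 44 on GRCh38, matched by identifier for 60463 of 60664 genes. Genes with at least 10 counts in total entered the quasi-likelihood test of edgeR 4.0.16 (R 4.3.3), after TMM scaling and with the condition as the single term, and p-values were adjusted by Benjamini-Hochberg over 29022 genes, where the study's own methods name DESeq2. Normalized counts are counts scaled to a common effective library size. The host was the same-strand gene that contains the whole member, and with several the one with the highest mean count. Host and member were compared in a fit over nested genes whose host had at least 60 counts, with the host's count plus 0.5 as offset. For a gene with no more than 3 counts in each library of a condition, folds are bounds against 3 counts. Pairs of replicate libraries differed by more than sampling noise (a chi-square over genes of 4.07 to 5.96 per degree of freedom), so none was merged.

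The members and gene lists were chosen with earlier results of these data known. Genes named by rule are the 8 members highest per kilobase, the members with a mean of at least 20 normalized counts, an adjusted p under 0.05 and no overlap (at most 8 in each direction), those with such a mean that were called against the host (at most 5 in each direction), and 10 members given by symbol. The genes of the 6 lists of snoRNA protein and processing factors are described as groups. The scripts were tested on simulated counts. The alternatives were other count filters, RLE size factors or library size alone, DESeq2 1.42.0, the replicate number as a block, other limits of size or level, members free of exon overlap, the host with the shortest span, and each library left out in turn.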

Additional observations from a re-analysis of the deposited data

How the results depend on the processing

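The median log2 fold change of the tested members was positive under every alternative, between 0.14 and 0.47, beside -0.00 to 0.08 over all genes. The value of 0.47 came from the fit with no count filter, in which 270 members were tested. RLE size factors or library size alone gave the same 18 calls. Of the 18, 10 were called in each refit (another filter, scaling, DESeq2, the replicate block or a library left out) in which they were tested, the limits of size and level set aside. Only 9 of the 18 were tested in every refit. Among the 10, SNORA14A, the SNORD116 copy, both U8 copies and ENSG00000252904 were not tested under the stricter filter of edgeR. These genes had at most 1 count in any siCTRL library. ENSG00000252904 was also not tested when any siSFPQ library was left out. The stricter filter of edgeR left 27 members to test, with 8 higher and 1 lower (C/D 1 and 1, no class 2 higher), and by host 2 higher with a lower host, 1 higher with a host not called and 1 lower with a higher host. DESeq2 called 11 higher and 0 lower (H/ACA 4, no class 3, C/D 0 lower), and by host 3 higher with a lower host, 1 higher and 0 lower with a host not called. Members with a mean of at least 20 normalized counts numbered 12, with 5 higher and 0 lower, and a log2 fold change limit of 1.5 left 1 lower. With library size alone the hosts PTCD3 and RPL12 were called higher, so that 1 member was lower with a higher host and 1 higher and 0 lower with a host not called. Leaving out each library in turn gave 10 to 16 members higher and 0 to 3 lower. By class it gave 3 to 4 higher and 0 to 2 lower for C/D, 4 to 8 higher for H/ACA, 2 to 5 higher with no class and 0 to 1 lower for scaRNAs. By host it gave 2 to 5 higher and 0 to 1 lower with a higher host, 4 to 5 higher with a lower host and 1 to 3 higher and 0 to 1 lower with a host not called, and against the host 8 to 10 higher and 0 to 1 lower. The cause of these shifts was not tested beyond the smaller number of genes and samples.

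Replicate numbers did not pair the libraries, since the deviations of same-numbered libraries had correlations of 0.00191, 0.0121 and 0.0153, although each library correlated best with its own number. With the replicate block 15 of the 18 calls were shared, with 13 higher and 2 lower, 3 higher with no class, 1 lower with a higher host, and 0 higher and 0 lower with a host not called, and against the host 10 members were higher. Signs turned for members that were not called: SNORA33 was at 0.04 with library size alone, 0.01 with the replicate block and between -0.30 and 0.30 with a library left out, SNORD14A at 0.00 with library size alone and between -0.30 and 0.13, SNORA11F between -0.23 and 0.41, SNORD101 between -0.19 and 0.13, SNORD62B between -0.66 and 0.06 and SCARNA5 between -0.34 and 0.58. Most members had too few counts to show a change of less than several fold.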
